A study of Xenopus laevis with 16 samples.

Results

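A group of 20 gene models was selected from the RNA of Xenopus laevis animal cap explants because their level was above control early after GATA4 activation in both GATA4 treatments, was close to control with Nodal5 at those hours, and was no longer clearly above control at 24 h. They were 20 of the 30864 models with a total of at least 50 counts over the 16 libraries, out of 54142 models in all. The selection used the levels themselves. A level is in CPM, the counts of a model divided by the library total and rescaled to a common size, after TMM scaling, an edgeR correction for library composition, and a difference is taken from the control library of the same hour on the log2(CPM + 1) scale. Each of the 20 had a difference of at least 1 in the GATA4-GR library and in the GATA4-GR+Dkk-1 library at 2.5, 5 and 7.5 h, a difference below 0.5 in each of these at 24 h, and a Nodal5 difference between -0.5 and 0.75 at the 3 early hours. The members are numbered 1 to 20 by their mean early difference in the GATA4 treatments, from the highest to the lowest.

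The study sought genes regulated under conditions that lead ectoderm to form heart tissue. The 16 libraries held 1 sample per treatment and hour, each a pool of explants, so no difference at 1 hour has a replicate. Control explants came from uninjected embryos. GATA4-GR explants came from embryos injected with mRNA for GATA4 fused to the hormone-binding part of the glucocorticoid receptor, GATA4-GR+Dkk-1 explants carried mRNA for Dkk-1 as well, and Nodal5 explants carried nodal5 mRNA alone. The hours were counted from the cutting of the explants and the addition of dexamethasone (DEX), which switches the fusion protein on. Whether control and Nodal5 explants were given DEX is not given in the sources used here, and neither group carried the receptor part, so GATA4 and the receptor fusion cannot be told apart in what follows.

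GATA4 is a zinc-finger transcription factor that binds GATA motifs and takes part in the formation of heart, endoderm and blood vessels. The animal cap is the roof of the blastula, which becomes epidermis when left alone and can take other fates when it receives an inducing signal. Nodal5 is a secreted TGF-beta family ligand that induces mesoderm and endoderm, and Dkk-1 is a secreted inhibitor of canonical Wnt signalling.

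Total counts ranged from 11339829 to 23310320 per library. The scaling factors lay between 1.02 and 1.1 at the early hours and were lower at 24 h, at 0.711 in control, 0.815 with Nodal5, 0.865 with GATA4-GR and 0.914 when Dkk-1 was added to it. The table of gene names matched 0 of the 54142 identifiers, so the members are known only by identifier, their functions are not given, and markers of ectoderm or other cell types were not counted. In pooled explants, fewer cells that express a gene and less RNA per cell cannot be told apart.

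The members were scarce in control explants from 2.5 to 7.5 h. The median member had 0.295 CPM in the control library at 2.5 h, 0.236 at 5 h and 0.356 at 7.5 h. At these hours 14 of the 20 members were under 1 CPM in every control library, and 5 had 0 counts in at least 1 of them. The same shares over all models were not counted, so a low control level is not read as particular to the members. With GATA4-GR the median level was 5 CPM at 2.5 h, 7.23 at 5 h and 10.8 at 7.5 h, and with GATA4-GR+Dkk-1 it was 3.57, 6.6 and 6.27 CPM. The Nodal5 medians, at 0.318, 0.334 and 0.303 CPM, lay beside those of control, as the selection required.

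At 24 h the median level was 7.15 CPM in control, 5.5 CPM with GATA4-GR, 5.19 CPM with GATA4-GR+Dkk-1 and 0.481 CPM with Nodal5. Taken member by member, the median difference from control was -0.48 with GATA4-GR, which was above control in 7 of 20 members, and 0.19 with GATA4-GR+Dkk-1, which was above control in 12. The early difference from control, averaged over both GATA4 treatments and 3 hours, ran from 1.32 to 3.27 among members with a median of 1.85. The 24 h difference, averaged over both GATA4 treatments, ran from -3.87 to 0.32 with a median of -0.22. Of all models, 1.04% met the early GATA4 condition and 75.9% met the 24 h condition, against all 20 members by selection.

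**Figure D1:**
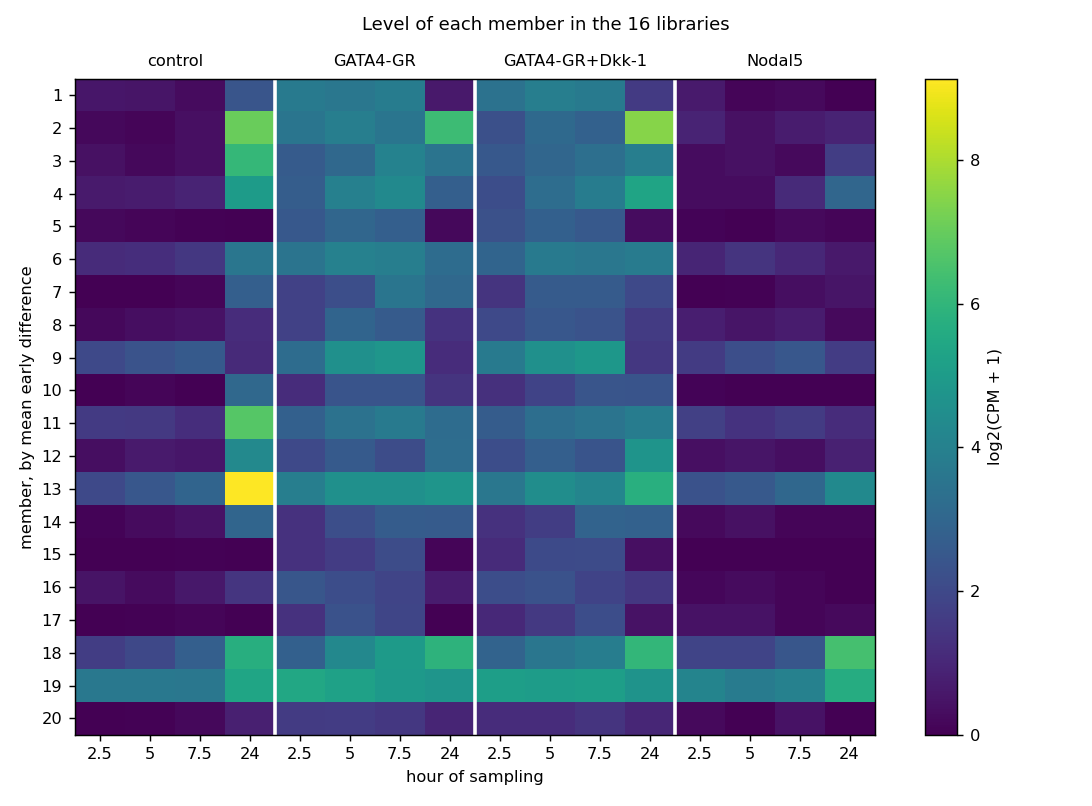
Level of the 20 members, in log2(CPM + 1), in the 16 libraries. Rows are members in order of mean early difference, columns are hours within each treatment, and each cell is 1 library. The early GATA4-GR and GATA4-GR+Dkk-1 cells are brighter than the early control and Nodal5 cells in every row by selection, and 13 rows have a control cell at 24 h at least 1 unit above that at 7.5 h.

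The heatmap of levels shows that these members did not reach the 24 h condition in 1 way. In some rows the GATA4 cells dim at 24 h, and in more rows the control cell brightens. Both movements were therefore counted from 7.5 to 24 h within each treatment, at a log2 change of at least 1. These counts describe 1 library against 1, and the 24 h condition fixes part of them.

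The control library was at least 1 higher at 24 h than at 7.5 h in 13 of 20 members, where 19.9% of all models were. It was at least 1 lower in 1 member, where 17.2% were. A level under 1 CPM cannot fall by 1 on this scale, so the 14 members that low in every early control library could not show such a fall. Both GATA4 libraries were at least 1 lower at 24 h in 5 members, against 13.1% of all models, and at least 1 higher in 2 members, against 15.7%. In only 1 member, Xelaev16056130m.g, did a gain in control meet a loss in both GATA4 treatments. A higher control level at 24 h was thus more frequent than a lower level in both GATA4 libraries. These counts are not alike, since the GATA4 count asks for a fall in both libraries and the control count for a gain in a single library. Members 4, 8 and 16 fell by at least 1 with GATA4-GR only, at -1.56, -1.26 and -1.16. The members were chosen for a 24 h level near or below that of control, and most were too low in early control to fall by 1.

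**Figure D2:**
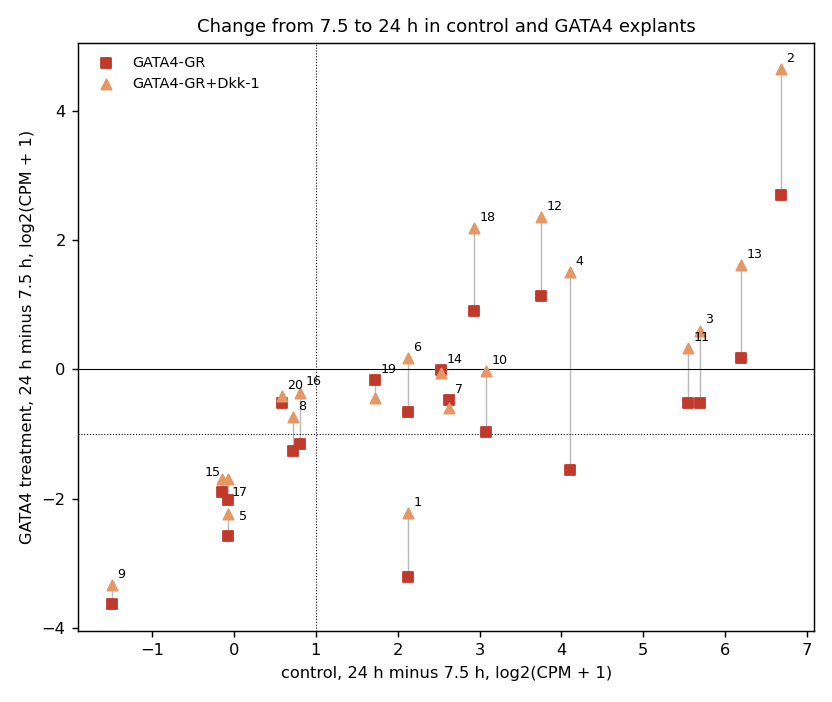
Change from 7.5 to 24 h on the log2(CPM + 1) scale in control (horizontal axis) and in each GATA4 treatment (vertical axis), with squares for GATA4-GR, triangles for GATA4-GR+Dkk-1, a line joining both points of a member and its number beside it. Dotted lines mark changes of 1 and -1. To the right of the vertical dotted line lie 13 members, and both points of 5 members lie below the lower dotted line.

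Among the 13 members with a gain in control, the control change from 7.5 to 24 h ran from 1.72 to 6.68 with a median of 3.08. Over the same interval the change with GATA4-GR ran from -3.21 to 2.7, that with Dkk-1 added from -2.22 to 4.64 and that with Nodal5 from -0.43 to 4.01. The median control level of these 13 at 24 h was 31 CPM and the median Nodal5 level was 0.874 CPM.

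The largest gain in control belonged to Xelaev16062916m.g (member 2). Its control libraries held 0.131, 0.0786, 0.305 and 133 CPM in order of hour, an increase from 7.5 to 24 h of 435-fold (95% exact interval 200 to 1190, counting error only, as for all such intervals here). With GATA4-GR it had 10.8, 14, 10.8 and 75.8 CPM, and with GATA4-GR+Dkk-1 3.69, 7.62, 6.1 and 176 CPM. With Nodal5 it had 0.868, 0.334, 0.606 and 0.874 CPM. The model was thus above control early in the GATA4 explants, and at its highest at 24 h in control and in both GATA4 treatments. It was low throughout with Nodal5, and the 24 h control library was 152-fold above that with Nodal5 (interval 82.4 to 317).

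Xelaev16042324m.g (member 13) reached the highest level of any member. Its control libraries held 3.01, 4.63, 6.66 and 559 CPM at the 4 hours, and the last was 83.9-fold the level at 7.5 h (interval 70.6 to 101). The GATA4-GR libraries held 14, 23.3, 23 and 26.1 CPM and the GATA4-GR+Dkk-1 libraries 11.2, 21, 16.8 and 53 CPM. These were above control at each early hour, with GATA4-GR 4.64-fold higher at 2.5 h (interval 3.33 to 6.57), 5.03-fold at 5 h (4.09 to 6.23) and 3.45-fold at 7.5 h (2.83 to 4.24). At 24 h the control library was 21.4-fold above GATA4-GR (interval 19.2 to 23.9) and 10.5-fold above GATA4-GR+Dkk-1 (9.82 to 11.3). Its Nodal5 libraries held 3.93, 4.89, 7.35 and 19.2 CPM, which left control 29-fold higher at 24 h (interval 25.4 to 33.4).

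Xelaev16079453m.g (member 11) followed the same order at a lower level. The control libraries held 1.9, 1.85, 1.27 and 105 CPM, with 82.9-fold more at 24 h than at 7.5 h (interval 55.9 to 129). The GATA4-GR libraries held 6.01, 9.89, 12.5 and 8.44 CPM, the GATA4-GR+Dkk-1 libraries 5.27, 8.84, 10.4 and 13.3 CPM, and the Nodal5 libraries 2.31, 1.51, 1.99 and 1.22 CPM. At 24 h control stood 12.5-fold above GATA4-GR (interval 10.2 to 15.3), 7.94-fold above GATA4-GR+Dkk-1 (6.87 to 9.22) and 86-fold above Nodal5 (51.1 to 158). From 7.5 to 24 h the log2 level of this model moved by -0.52 with GATA4-GR and by 0.33 with GATA4-GR+Dkk-1, while that of control moved by 5.55.

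Member 3 completed the group in which both GATA4 libraries were at least 1 below control at 24 h. Its control libraries held 0.328, 0.157, 0.305 and 66.4 CPM, its GATA4-GR libraries 5.2, 7.43, 15.4 and 10.5 CPM and its GATA4-GR+Dkk-1 libraries 4.76, 7.16, 9.02 and 14.2 CPM. Its Nodal5 libraries held 0.231, 0.334, 0.173 and 2.19 CPM. At 24 h control was 6.35-fold above GATA4-GR (interval 5.28 to 7.67) and 4.68-fold above GATA4-GR+Dkk-1 (4.04 to 5.44). Such a reversal, above control early and at least 1 below it at 24 h in both treatments, was seen in 3 of 20 members, while 9.62% of all models were that far below control at 24 h. Both GATA4 treatments lay below control by any amount in 7 members, against 43.7% of all models. The mean 24 h difference of these 3 members therefore sets the low end of the range, and most other members lay near control in that mean. The mean can hide a difference between the treatments. With GATA4-GR, members 1, 4, 10 and 12 were also at least 1 below control, at -1.77, -2.23, -1.69 and -1.04. With Dkk-1 added, these members had -0.86, 0.34, -0.71 and 0.42.

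**Figure D3:**
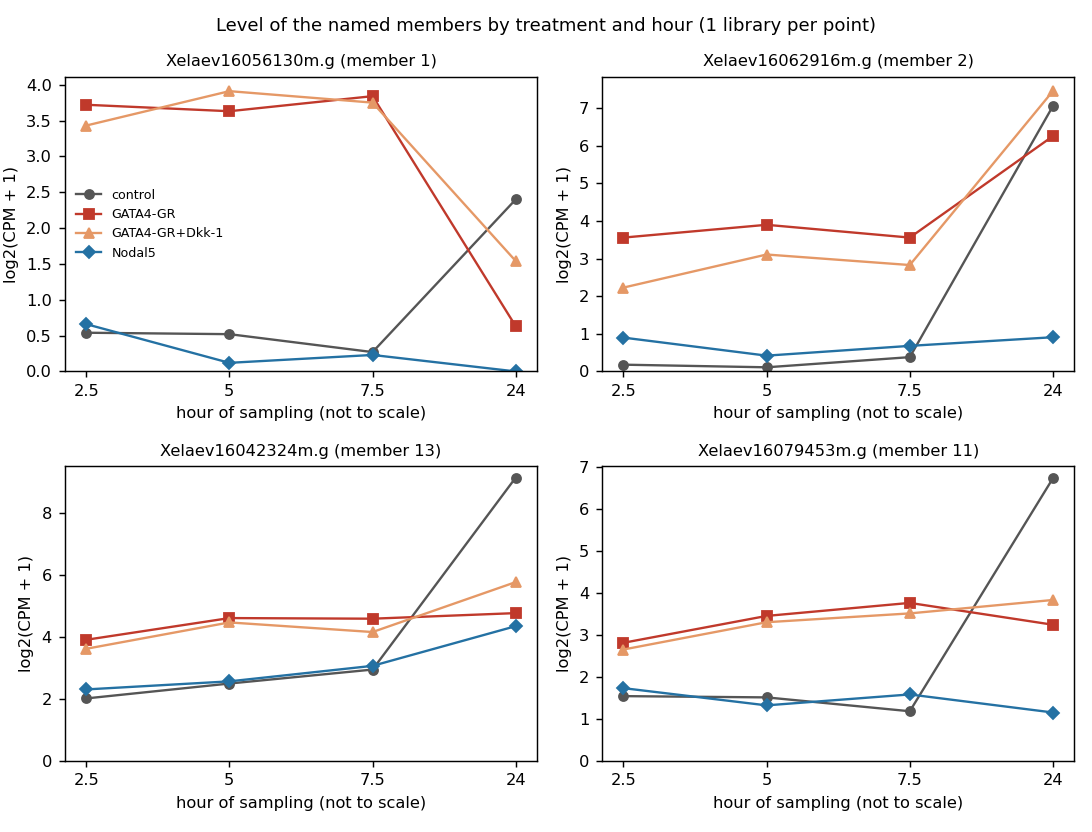
Level in log2(CPM + 1) of the 4 models given by identifier, at the 4 hours (evenly spaced, not to scale), 1 library per point and 1 line per treatment. In all 4 panels both GATA4 lines lie above control and Nodal5 up to 7.5 h, and the control line is above the GATA4-GR line at 24 h.

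Xelaev16056130m.g (member 1), which had the highest mean early difference at 3.27, combined both movements. Its GATA4-GR libraries held 12.2, 11.4, 13.3 and 0.542 CPM, a 24.6-fold lower level at 24 h than at 7.5 h (interval 11.7 to 61.8). Its GATA4-GR+Dkk-1 libraries held 9.81, 14.1, 12.5 and 1.9 CPM. The control libraries held 0.459, 0.432, 0.203 and 4.27 CPM, with 21-fold more at 24 h than at 7.5 h (interval 7.73 to 80). At 2.5 h GATA4-GR was already 26.6-fold above control (interval 12.6 to 67.2), and at 24 h control was 7.88-fold above GATA4-GR (3.56 to 20.6). With Nodal5 it had 0.579, 0.0836, 0.173 and 0 CPM, and against a floor of 3 counts control was at least 16.3-fold higher at 24 h. The profiles of the 4 models by identifier show this one as the only panel in which both GATA4 lines descend at the end.

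In the other 7 members the control library was not at least 1 higher at 24 h, with at most 1.64 CPM there, and no GATA4 library exceeded 2.03 CPM at 24 h. In 4 of them, members 5, 9, 15 and 17, both GATA4 libraries were at least 1 lower at 24 h than at 7.5 h. Member 9 was the most abundant of these. Its GATA4-GR libraries held 8.37, 23.2, 26.7 and 1.24 CPM and its GATA4-GR+Dkk-1 libraries 12.7, 23, 27.2 and 1.78 CPM, so that the 24 h levels were 21.6-fold (interval 13.2 to 38.1) and 15.3-fold (10.5 to 23.1) below those at 7.5 h. Its control libraries held 3.01, 4.05, 5.03 and 1.15 CPM and its Nodal5 libraries 1.97, 3.55, 4.59 and 2.1 CPM. All 4 treatments were thus lower at 24 h than at 7.5 h, and member 9 was the 1 member whose control was at least 1 lower.

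Members 5, 15 and 17 had few counts outside the early GATA4 libraries. Member 5 had 4.8, 7.03, 5.86 and 0.155 CPM with GATA4-GR and 3.74, 6.03, 4.88 and 0.246 CPM with GATA4-GR+Dkk-1. It had at most 0.131 CPM in any control library and 0.173 CPM in any Nodal5 library. Member 15 had 1.46, 2.06, 3.36 and 0.0775 CPM with GATA4-GR and 1.19, 3.1, 3.26 and 0.307 CPM with GATA4-GR+Dkk-1. Its control libraries were at 0 except for 0.0508 CPM at 7.5 h, and all 4 of its Nodal5 libraries were at 0. Member 17 had 1.46, 3.95, 2.73 and 0 CPM with GATA4-GR and 1.08, 1.89, 3.46 and 0.368 CPM with GATA4-GR+Dkk-1, against at most 0.102 CPM in control and 0.376 CPM with Nodal5. These levels are low, and members 15 and 17 are among the 4 with fewer than 20 counts in at least 1 early GATA4 library.

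The remaining members, 8, 16 and 20, were low in every treatment at 24 h. Their control libraries held 1.23, 1.64 and 0.739 CPM there, against 1.55, 0.62 and 0.93 CPM with GATA4-GR and 2.03, 1.78 and 0.982 CPM with GATA4-GR+Dkk-1. Their changes from 7.5 to 24 h in control were 0.72, 0.81 and 0.59 on the log2(CPM + 1) scale. In CPM, control was 3.46-fold (interval 1.33 to 10), 3.23-fold (1.44 to 7.73) and 4.85-fold (1.21 to 27.8) higher at 24 h. Their place outside the members with a gain in control thus rests on the pseudocount. With a pseudocount of 0.5 and the members fixed, 15 members had a control gain of at least 1.

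Nodal5 at 24 h played no part in the selection, although its comparison uses the same control library as the 24 h condition. It was at least 1 below control in 12 of 20 members, against 13.6% of all models, and at least 1 above control in 0 members, against 10.8%. By any amount it was below control in 14 members, against 49.2% of all models. Members with a high control level at 24 h held most of these, since 11 of the 12 were among the 13 with a gain in control, and member 16 was the other.

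Nodal5 had under 1 CPM at 24 h in 13 members and 0 counts in 5, and the same shares over all models were not counted. Its level at 24 h was at least 1 above its own level at 7.5 h in 5 members, against 16.2% of all models, and at least 1 below it in 0, against 15.8%. Such a fall was out of reach for most members, whose Nodal5 level at 7.5 h was under 1 CPM (median of all members 0.303 CPM). The members with the most Nodal5 RNA at 24 h were 18 and 19. Member 18 had 2.72, 2.63, 4.41 and 86 CPM with Nodal5, against 2.16, 2.95, 5.85 and 51.3 CPM in control, 6.01, 18.1, 30.5 and 58.2 CPM with GATA4-GR, and 6.52, 11.1, 13.5 and 64.7 CPM with GATA4-GR+Dkk-1. In this model every treatment converged on a high level at 24 h, and Nodal5 was 1.67-fold above control (interval 1.51 to 1.85). Member 19 was the one with a substantial level in early control explants, at 11.5, 11.6, 11.3 and 39.8 CPM. It held 43.2, 36, 29.1 and 25.9 CPM with GATA4-GR, 16.3, 13, 15.1 and 49.5 CPM with Nodal5, and 33.9, 32.2, 34.1 and 24.9 CPM with GATA4-GR+Dkk-1.

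**Figure D4:**
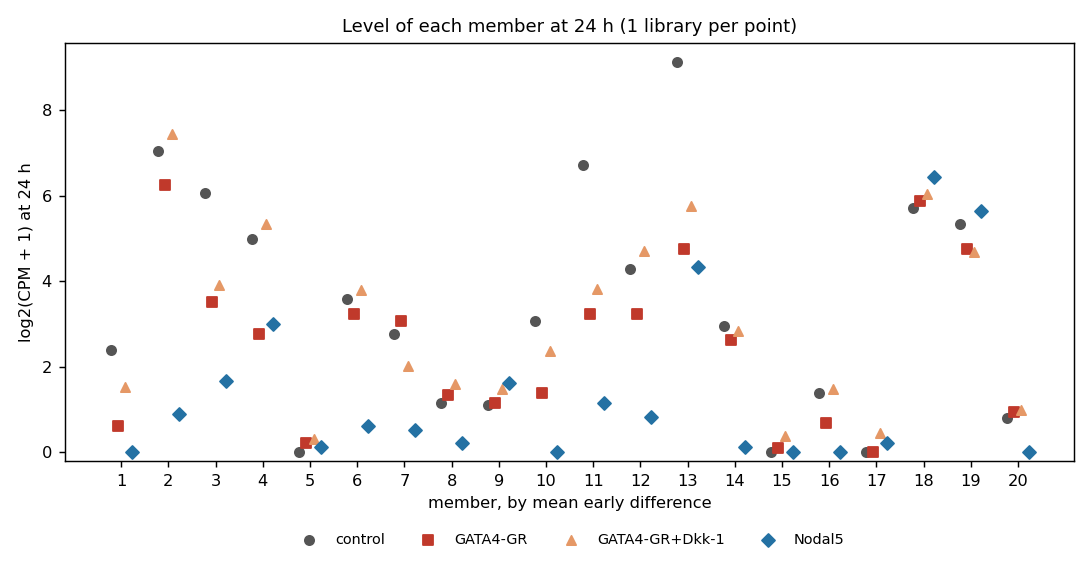
Level of each member at 24 h in log2(CPM + 1), 1 library per point and 1 symbol per treatment. Nodal5 lies at least 1 unit below control in 12 members, and control is at least 1 unit above both GATA4 treatments in members 3, 11 and 13.

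Nearest to the members were 104 models that met the early GATA4 and Nodal5 conditions and stayed above the 24 h limit in at least 1 GATA4 treatment. Both sets together made 124 of the 321 models that met the early GATA4 condition, and they are split by the 24 h condition alone. The early control levels of the 104 were much the same, with medians of 0.328, 0.354 and 0.559 CPM, but at 24 h their median control level was 0.616 CPM beside 7.15 CPM in the members. Their control was at least 1 higher at 24 h than at 7.5 h in 26 of 104, beside 13 of 20 members, and Nodal5 was at least 1 below control at 24 h in 17, beside 12 of 20. Both GATA4 libraries were at least 1 lower at 24 h in 27 of the 104, beside 5 of 20. The split was made on values that contain the 24 h control level, so these counts are given side by side and were not tested.

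Early differences were smaller in the members than in the 104. With GATA4-GR the median difference was 1.72 at 2.5 h, 2.25 at 5 h and 2.2 at 7.5 h in the members, beside 2.05, 3.05 and 3.5. With GATA4-GR+Dkk-1 it was 1.55, 2.07 and 2.18, beside 1.75, 2.64 and 3.21. The median member gained 0.62 from 2.5 to 5 h and -0.06 from 5 to 7.5 h, averaged over both treatments. From 2.5 to 7.5 h the difference grew in both treatments in 13 members and shrank in both in 2.

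The hour of the highest early difference with GATA4-GR was 2.5 h in 3 members, 5 h in 9 and 7.5 h in 8. With GATA4-GR+Dkk-1 it was 2.5 h in 0 members, 5 h in 11 and 7.5 h in 9, and the hour was the same in both treatments in 14 members. Some of these peaks rest on small margins, such as 2.26 at 5 h against 2.2 at 7.5 h in member 9 with GATA4-GR. All 5 h libraries were marked as sequenced again, so that run and that hour cannot be told apart. Member 16 was highest at 2.5 h with GATA4-GR in level, at 4.39 CPM followed by 3.43 and 2.62 CPM. Member 3 was still higher at 7.5 h, with the 15.4 CPM given above after 5.2 and 7.43 CPM.

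The effect of adding Dkk-1 to GATA4-GR at the early hours was fitted over all models, but the members' values in it are a description. The selection required both treatments to be at least 1 above control at these hours. A model that fell short in either treatment was thus not a member. The 2.5 h level with GATA4-GR+Dkk-1 was the only failure of 4 models. For 3 models the only failure was the 2.5 h level with GATA4-GR, for 1 its 5 h level and for 4 its 7.5 h level. Leaving out models low with GATA4-GR can tilt the members toward lower values with Dkk-1, and leaving out the others can do the opposite. The fit used edgeR's quasi-likelihood method on the 12 libraries of the early hours, with hour and treatment as factors and 6 residual degrees of freedom. It took as error the variation between hours of the effects of all 4 treatments, control and Nodal5 included, which is not the variation between explant batches. At an adjusted p of 0.1 it called 0.00324% of all models as higher, which is 1 model, and 0% as lower, and it called 0 of 20 members. DESeq2 also called 0 members. At an unadjusted p of 0.05, 4 members were past the threshold, against 9.34% of all models. Nothing about the members is read from these counts.

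By estimate, 17 of 20 members were lower with Dkk-1, against 51.8% of all models. The median log2 fold change was -0.26 in the members and -0.01 over all models. Lower early medians with Dkk-1 were not particular to the members. The 104 models left out by the 24 h condition had medians of 5.57, 13.8 and 17.3 CPM with GATA4-GR at the early hours. With Dkk-1 added they had 4.03, 10.2 and 14 CPM. Xelaev16062916m.g had the lowest at -1.05 (SE 0.287), with the GATA4-GR+Dkk-1 level below the GATA4-GR level at each early hour. The highest was 0.24, in member 12. The SE of a member ran from 0.126 in member 19, the most abundant at the early hours, to 0.426 in member 20. At the single hours, 8 members were lower with Dkk-1 at all 3 and 1 was higher at all 3. The same share over all models was not counted, so nothing about the members is read from this.

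When the libraries of only the GATA4 treatments were fitted, control and Nodal5 did not enter the error. That fit had fewer residual degrees of freedom than the 6 of the fit of 12 libraries. In it 12.3% of all models were called, and 5 members with them, all lower with Dkk-1. The selection used these same libraries, so these calls are a description too and nothing about the members is read from them. Their log2 fold changes were -1.02 in member 2, -0.64 in member 4, -0.68 in member 18, -0.37 in member 6 and -0.28 in member 13. In the fit of 12 libraries the same members had -1.05, -0.67, -0.67, -0.4 and -0.3.

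**Figure D5:**
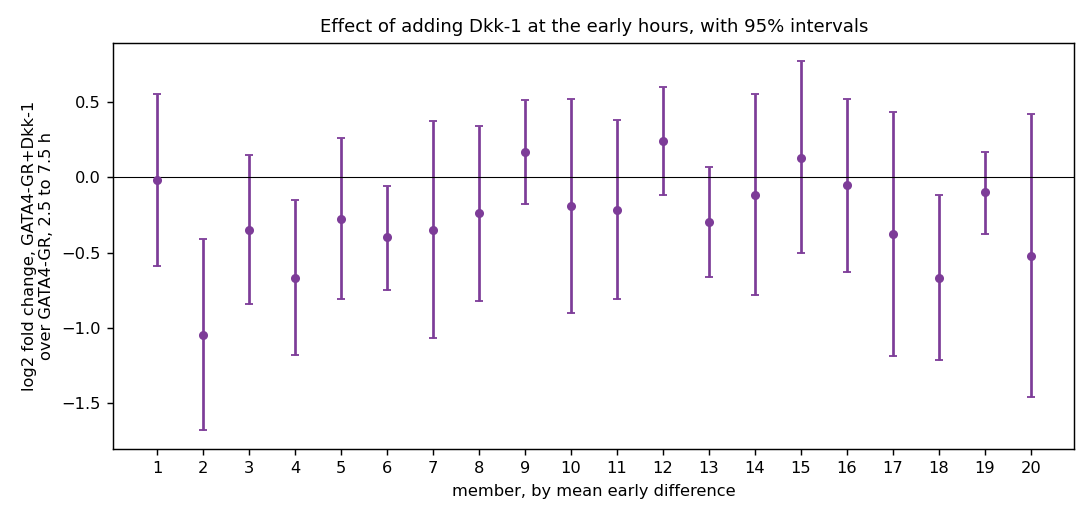
Log2 fold change of GATA4-GR+Dkk-1 over GATA4-GR at 2.5 to 7.5 h for each member (points) with 95% intervals (bars) from edgeR's quasi-likelihood fit of 12 libraries, given as a description of selected models. Points of 17 members lie below 0, from -1.05 in member 2 to 0.24 in member 12.

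At 24 h the sign of that difference was the other one in most members. GATA4-GR+Dkk-1 was above GATA4-GR in 18 of 20 members, where 47.4% of all models were and 83 of the 104 models left out by the 24 h condition. The median difference was 0.43 in the members and -0.01 over all models, with 1 library against 1 and no test. The difference was at least 1 upward in 3 members, against 1.06% of all models and 28 of the 104. It was at least 1 downward in 1 member, against 1.19% of all models and 1 of the 104. The 24 h condition keeps GATA4-GR+Dkk-1 less than 0.5 above control in the members, so it limits the upward differences.

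Member 4 had the largest 24 h difference, 2.57. Its GATA4-GR libraries held 5.53, 14.9, 19.1 and 5.81 CPM and its GATA4-GR+Dkk-1 libraries 3.46, 8.63, 13.2 and 39.4 CPM, the last 6.78-fold above GATA4-GR (interval 5.33 to 8.73). Its control libraries held 0.59, 0.628, 0.864 and 31 CPM and its Nodal5 libraries 0.231, 0.251, 1.12 and 7.08 CPM. With Dkk-1 the model was thus lower at each early hour and near the control level at 24 h, while GATA4-GR was below control, at 0.188 of its level (interval 0.144 to 0.241).

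Members 12 and 2 were the others above. Member 12 had 8.52 CPM with GATA4-GR and 25.3 CPM with GATA4-GR+Dkk-1 at 24 h, a difference of 1.47, beside 18.6 CPM in control and 0.787 CPM with Nodal5. Xelaev16062916m.g differed by 1.2, at 2.31-fold (interval 2.15 to 2.49). The 1 member in the other direction was member 7, with 7.44 CPM with GATA4-GR and 3.07 CPM with GATA4-GR+Dkk-1 at 24 h, a difference of -1.05. In the early control libraries of member 7 there were at most 0.102 CPM, against 2.44, 3.6 and 10.7 CPM with GATA4-GR and 1.59, 5.15 and 5.15 CPM with GATA4-GR+Dkk-1.

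The boundary of the group was close to many models. Inside it, the lowest early difference was 1.05 and the highest 24 h difference 0.45, and the nearest Nodal5 values were 0.72 and -0.47. Outside it, 33 models failed exactly 1 of the 11 conditions, the nearest with a GATA4-GR difference of 0.98 at 2.5 h, a Nodal5 difference of -0.53 at 7.5 h and a GATA4-GR difference of 0.53 at 24 h.

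Membership depended on the pseudocount and on whether library totals were scaled. With 0.5 in place of 1, 9 of the 20 members still qualified, and of the 11 lost, 9 failed a Nodal5 limit and 4 the 24 h limit. With 2, 11 still qualified, and all 9 lost fell short of the early threshold. Both settings kept 4 members (3, 12, 13 and 19), and all 4 had a gain in control of at least 1. With unscaled totals 11 of the 20 qualified, and of the 9 lost, 8 failed the 24 h limit and 2 a Nodal5 limit. The 24 h condition thus rested on the scaling in these 8, and control had the lowest 24 h scaling factor, 0.711. Members 3, 13 and 19 were left under all 4 scaling and pseudocount settings tried, the fourth being median-of-ratios scaling, which kept all 20. Reads shared between similar models make single members uncertain. Whole expected counts were found in all 16 libraries in 7 members while 100% of the counts of member 19 and 93.8% of those of member 9 were not whole.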

How the data were processed

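Poly(A) RNA of 16 animal cap samples was sequenced. The authors aligned reads to JGI v7.2 gene models with Bowtie and deposited expected counts from RSEM, which are not normalized. The kit marks strand, but whether the counting used it is not given in the sources used here, so models that overlap an antisense model are uncertain. Among the models kept, 47.9% of the expected counts were not whole (tolerance 0.001), because reads matching several models, such as homeologous copies, are divided, so members sharing reads are uncertain. Counts were rounded, and models with a total of at least 50 were kept. Levels are TMM-scaled CPM with a pseudocount of 1 on the log2 scale, which understates changes of low models. The total count per library, 11339829 to 23310320, limits counting error only; 95% intervals of a ratio are Clopper-Pearson, and floors use 3 counts. PCR duplicates are not independent molecules. R 4.3.3, edgeR 4.0.16 and DESeq2 1.42.0 were used, with Benjamini-Hochberg adjustment over all 30864 models. The members, lists and tests were chosen with earlier results of these data known. Gene lists and markers could not be applied without names. Models given by identifier are the 2 members with the highest mean early difference and the 2 with the lowest 24 h difference, among the 16 with at least 20 counts in each early GATA4 library; other members are given by number, and those singled out were chosen after their values were seen. Alternatives were the scaling, rounding, filters, pseudocount, thresholds, libraries in the fit and DESeq2. A comparison of 24 h with the mean of the early libraries was chosen after seeing the data. The library names in the sample descriptions mark all 5 h libraries as sequenced again, so that run coincides with an hour and not with a treatment.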

Additional observations from a re-analysis of the deposited data

How the results depend on the processing

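Of 101 alternatives, 77 were labelled as close to the reported value or count, 24 as moved (a count by over 1.5 times) and 0 as reversed. Median differences from control, and the differences of models given by identifier, were labelled as moved at a smaller relative change than counts. Counts were compared by size alone and could not be labelled as reversed. The median Dkk-1 fold change was compared by sign alone, and was -0.14 with all 4 hours in the fit, beside -0.26. A pseudocount of 0.5 gave 20 members, 9 of them among the reported 20, and a pseudocount of 2 gave 16, with 11 among them. The number of members was 12 with unscaled totals (11 of them among the 20), 7 with an early threshold of 1.5 and 7 with a 24 h threshold of 0. Leaving out the libraries of 1 early hour gave 23 to 49 members, with all 20 included each time, because fewer conditions then had to be met. The Dkk-1 test called 46 models with DESeq2, 5 with no filter beyond 1 count, 3807 with only the GATA4 libraries and 0 with all 4 hours in the fit, and leaving out 1 hour gave 1 each time. Members called were 5 with only the GATA4 libraries and 0 in every other fit run. The cause of these differences was not tested. With the members fixed, a pseudocount of 0.5 gave a median early difference of 2.37 and a median 24 h difference of -0.25, and 7 members with Dkk-1 at least 1 above at 24 h. A pseudocount of 2 gave a median early difference of 1.49. Among the 16 members with at least 20 counts, the median 24 h difference was -0.27 and both GATA4 libraries were at least 1 lower in 3. Libraries were matched by hour in every Dkk-1 fit, and with 1 library per treatment and hour no replicate number gives a further pairing. Depth limits the low members most, as the lowest early GATA4 count was 15.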
